A study of Mus musculus with 6 samples.

Results

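The genes examined here encode the proteins that license, fire and copy DNA replication origins, in Ba/F3 cells expressing the TPR-FGFR1 fusion compared with Ba/F3 cells carrying an empty vector. The members were 46 genes taken by name: 6 subunits of the MCM helicase, 6 of the origin recognition complex (ORC), 3 licensing factors, 6 factors of helicase activation, 9 subunits of the polymerases and primase, 6 of the sliding clamp and its loader, 5 of Okazaki fragment processing and single-strand binding, 2 of fork protection, 2 of chromatin assembly factor 1, and the transcription factor gene E2f1. All 46 were found among the 57010 gene IDs of the deposited table, and all 46 passed the filter of a mean of at least 1 TPM that left 12862 genes for testing. TPM is a level scaled by transcript length and by each library's total, so levels of different genes can be set side by side, but the read depth of a library is unknown.

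Ba/F3 is a mouse haematopoietic line that normally needs interleukin-3 to grow and is widely used to study oncogenic kinases. The submitters labelled it a B lymphocyte line. The TPR-FGFR1 cells were made with a lentivirus and a 6-day selection in puromycin at 5 µg/ml, and the empty vector cells bear the genotype label WT. Each of the 2 groups had 3 libraries, 6 in all. The sources used here do not state the selection of the empty vector cells, whether either group was a pool or a clone, the promoter of the fusion, the presence of interleukin-3, or whether replicates were separate cultures. A p-value here rests only on how far the libraries of a group differ, which may be technical.

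In the G1 phase of the cell cycle, ORC marks an origin and, with Cdc6 and Cdt1, loads the ring-shaped MCM helicase onto DNA, while geminin, the product of Gmnn, blocks Cdt1 after G1. In S phase, Cdc45 and the GINS complex join the MCM ring to form the active helicase, polymerase alpha with primase starts each strand, and polymerases epsilon and delta extend them on the PCNA clamp. Many of these genes are transcribed at the G1 to S boundary under E2F factors, so their mRNA level in a culture follows both the share of cells near S phase and the level in each cell. In these bulk libraries, fewer cells in S phase and less RNA per cell cannot be told apart.

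Fgfr1 reads were present at 0.7, 0.58 and 1.26 TPM in the TPR-FGFR1 libraries, against 0.02, 0.04 and 0.05 TPM in the empty vector libraries. The groups did not overlap, the gene lay under the filter and was not tested, and the species of the fusion's sequence was not stated. TPR-FGFR1 replicate 3 stood apart from the other fusion libraries. Over the tested genes its Pearson r was 0.962 to 0.9635 against the other fusion libraries and 0.9657 to 0.9661 against those with the empty vector, whereas the other fusion libraries had r = 0.9778 between them. Genes rich in GC were lower in TPR-FGFR1 replicates 1 and 2: the median log2 difference from the control mean in the richest of 5 equal bins of genes by GC content, minus that in the poorest, was −0.69 and −0.86 there and −0.069 in replicate 3. Results are therefore given with all libraries, after removal of the trend over GC content and transcript length (the GC and length correction), and without TPR-FGFR1 replicate 3. Of 9 B-cell markers, only Cd79b was abundant enough to test, so the B lymphocyte label was not borne out by this list. Of 8 haematopoietic markers, 6 were tested, including Ptprc, Spi1 and Gata2, and Kit was listed at 0. The T-lineage markers summed to at most 0.89 TPM and the fibroblast and epithelial markers to at most 0.68 TPM in any library. Markers of other lineages were present: macrophage and neutrophil markers summed to 63.7 to 75.3 TPM, and erythroid markers to 230 to 393 TPM. Of these, Lyz2 and Epor fell and 0 rose, where 10.0% and 10.2% of all tested genes did. The haematopoietic markers summed to 576, 549 and 689.6 TPM in the TPR-FGFR1 libraries, against 734, 751 and 774 TPM in the empty vector libraries, with no overlap, 2 of the 6 tested having fallen and 0 risen. The part of these markers in the results was not tested.

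More of the replication genes fell than rose in the fusion cells, and most were not called in either direction. Of the 46 members, 9 fell (19.6%) and 2 rose (4.35%), against 10.0% of all tested genes called lower and 10.2% called higher. The genes that fell were Timeless, Cdt1, Gins1, Rpa2, Mcm2, E2f1, Mcm5, Mcm3 and Pcna, with log2 fold changes from −0.82 to −0.27. Rpa3 and Rfc3 rose by 0.36 and 0.33 on the log2 scale. The other 35 members were not called at an adjusted p under 0.05 (limma on log2(TPM + 1), Benjamini-Hochberg over all tested genes). For 15 of these 35, the 95% interval of the log2 difference lay within 0.3 either side of 0. That bound is wider than the fall of −0.27 at which Pcna was called. The intervals hold for this fit alone: Mcm6, Orc4, Orc6, Prim2, Pold3 and Rfc1, among the 15, were called lower after GC and length correction. Over all 46 members the median log2 fold change was −0.060, beside 0.019 over all tested genes, and 32 of the 46 values were below 0.

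The count of calls depended on single libraries. Without TPR-FGFR1 replicates 1, 2 and 3 in turn, 2, 3 and 13 members fell, and without empty vector replicates 1, 2 and 3 in turn, 2, 1 and 2 members fell. The counts over all tested genes moved the same way, from 1291 falls with all libraries. They were 170, 443 and 3009 without the TPR-FGFR1 replicates in turn, and 213, 109 and 134 without the empty vector replicates. The 13 falls (28.3%) and 9 rises (19.6%) without TPR-FGFR1 replicate 3 stood beside 23.4% and 26.3% of all tested genes called lower and higher. The 2 rises were lost without any other library. Gins1 was the only member whose call held without each of the 6 libraries in turn (limma adjusted p up to 0.0466). Timeless held in 5 of the 6, with an adjusted p of 0.0541 without empty vector replicate 2. Rpa2 held without TPR-FGFR1 replicate 2 or 3. The other 8 called members were called only without TPR-FGFR1 replicate 3, and leaving out any other library gave them adjusted p-values from 0.0544 to 0.167. The log2 fold changes of the 9 genes that fell were below 0 in all 189 values over 21 alternative settings, and those of the 2 that rose were above 0 in all 42. The groups did not overlap for any of these genes, so leaving out a library could not change a sign. Changes of the filter or of the variance model left the fold change as it was. The agreement in sign therefore adds no support to the calls.

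**Figure D1:**
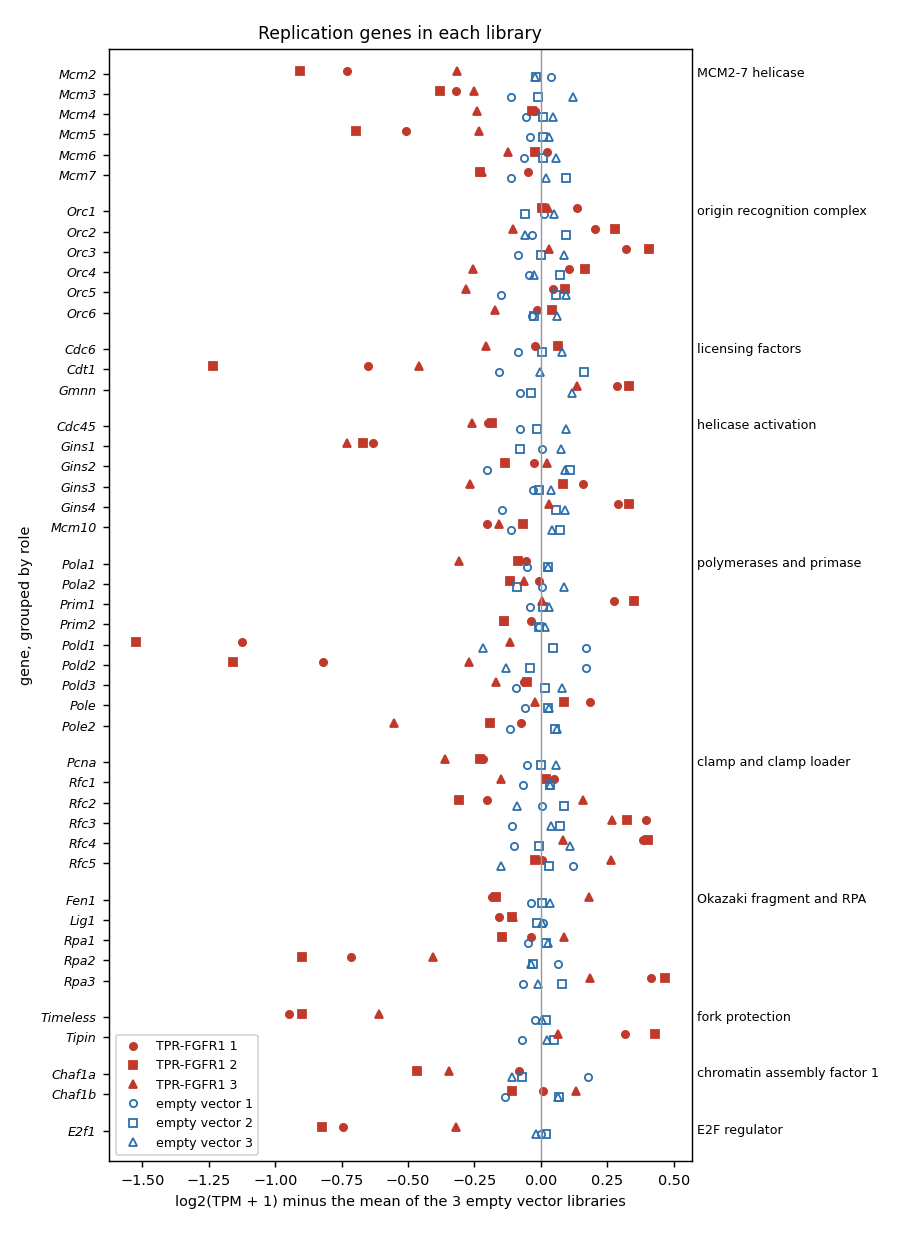
Each row is a replication gene, grouped by role, and each point a library's log2(TPM + 1) minus the mean of the 3 empty vector libraries (filled red, TPR-FGFR1; open blue, empty vector; symbols give the replicate number). Gins1 and Timeless lie to the left in all 3 TPR-FGFR1 libraries, while triangles, TPR-FGFR1 replicate 3, lie nearer 0 than the other fusion libraries for 7 of the 9 genes that fell.

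Because E2F factors bind many promoters of this group, the RefSeq promoter windows of mouse build GRCm38.p6 (300 bases, from 250 bases before the annotated start) were searched on both strands for 2 forms of the E2F site, TTTCCCGC and TTTGGCGC. GCGGGAAA and GCGCCAAA are the same forms on the opposite strand. A window was found for 37 of the 46 members, 45 windows in all. An E2F form was held by 13 of the 45 windows (28.9%), 1 in each of 13 members, against 1.56% of all 32851 windows. Of all 37 members with a window, 8 fell, 2 rose and 27 were not called, beside 10.0% and 10.2% of tested genes called lower and higher. Of the 13 members with an E2F form, 3 fell (Mcm3, Mcm5 and Cdt1), 1 rose (Rfc3) and 9 were not called. Whether a form goes with a call was not tested. The stretches that hold the matches in these 4 called members are shown because they are the called genes with a literal E2F form, and because they include both directions of change. Each reads 5′ to 3′ along the gene's strand, with the matching letters in capitals:
Mcm5: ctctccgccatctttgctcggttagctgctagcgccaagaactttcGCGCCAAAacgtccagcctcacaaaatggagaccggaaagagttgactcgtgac
Mcm3: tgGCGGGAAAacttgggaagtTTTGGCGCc
Cdt1: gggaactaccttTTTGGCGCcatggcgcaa
Rfc3: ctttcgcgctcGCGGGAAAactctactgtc
The Mcm5 stretch is chr8:75109314-75109413 on the plus strand, and its match begins 149 bases before the annotated start. The Mcm3 stretch is chr1:20820266-20820295 on the minus strand, with matches that begin 19 and 38 bases after the start, 1 of each form. The Cdt1 stretch is chr8:122568035-122568064 on the plus strand, with its match beginning 32 bases after the start, and the Rfc3 stretch is chr5:151651190-151651219 on the minus strand, with its match beginning at the start base. In 0 of the 45 windows did an E2F match overlap another searched motif. A match describes letters only, and no match in Timeless, Rpa2, Mcm2, Pcna or E2f1 says only that these letters were not found in those windows.

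Among the subunits of ORC, which marks origins, none of 6 rose or fell, where 10.2% and 10.0% of all tested genes did. The complex's summed level was 425, 444 and 351 TPM in the TPR-FGFR1 libraries, against 370.4, 393 and 396 TPM in the empty vector libraries. Orc3, the subunit of highest level with the fusion by its mean, stood at 121, 129 and 99.3 TPM in the TPR-FGFR1 libraries, against 91.5, 97.02 and 103 TPM in the empty vector libraries. Replicates 1 and 2 of TPR-FGFR1 lay above every empty vector library and replicate 3 among them (log2 fold change 0.25, SE 0.113, limma adjusted p = 0.144; without replicate 3, log2 fold change 0.36, adjusted p = 0.00704). Orc2 stood at 50.6, 53.4 and 40.7 TPM in the TPR-FGFR1 libraries, against 42.8, 46.8 and 41.98 TPM in the empty vector libraries, the same arrangement except that replicate 3 lay below all others (log2 fold change 0.13 with all libraries and 0.24 without replicate 3, adjusted p = 0.445 and 0.0274). Neither call without replicate 3 held once corrected as well, with log2 fold changes of 0.09 for Orc3 and 0.035 for Orc2 (adjusted p = 0.189 and 0.693). Orc4 stood at 100.4, 105 and 77.8 TPM in the TPR-FGFR1 libraries, against 90.4, 97.9 and 91.4 TPM in the empty vector libraries. Orc5 stood at 35.5, 36.7 and 28.1 TPM in the TPR-FGFR1 libraries, against 30.9, 35.8 and 36.7 TPM in the empty vector libraries. Orc6 stood at 106, 110.4 and 95.01 TPM in the TPR-FGFR1 libraries, against 105, 105 and 112 TPM in the empty vector libraries. In these 3 genes the groups overlapped and replicate 3 was the lowest fusion library. After GC and length correction, Orc4, Orc5 and Orc6 were called lower, at log2 fold changes of −0.19, −0.23 and −0.18, although the uncorrected value of Orc4 was 0.0049. Orc1, the large subunit, had the lowest level of the complex, 10.7 ± 0.573 TPM with the fusion and 10.2 ± 0.4203 TPM with the empty vector (SD, n = 3 each), and was not called under any of these treatments.

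Of the licensing factors, Cdt1, which brings the MCM ring to ORC, fell, and its inhibitor gene Gmnn was higher in every fusion library without passing the test. Cdt1 (ENSMUSG00000006585) stood at 25.8, 16.9 and 29.6 TPM in the TPR-FGFR1 libraries, against 36.8, 46.1 and 40.98 TPM in the empty vector libraries. All 3 fusion libraries lay below the empty vector libraries, and the fusion libraries differed among themselves, replicate 2 being the lowest (log2 fold change −0.78, SE 0.201, limma adjusted p = 0.03801). The Cdt1 call was lost after GC and length correction (log2 fold change −0.41, adjusted p = 0.06295). Gmnn stood at 79.4, 82.1 and 71.5 TPM in the TPR-FGFR1 libraries, against 61.5, 63.2 and 70.6 TPM in the empty vector libraries. The groups did not overlap (log2 fold change 0.25, SE 0.0896, limma adjusted p = 0.0873). After the correction with all libraries Gmnn was not called (log2 fold change 0.23, limma adjusted p = 0.0585). Gmnn was called higher without replicate 3 both before and after the correction (log2 fold changes 0.31 and 0.28, adjusted p = 0.0158 and 0.0272). The ratio of Cdt1 to Gmnn in TPM was 0.325, 0.206 and 0.414 in the TPR-FGFR1 libraries, against 0.598, 0.728 and 0.581 in the empty vector libraries. This ratio was not corrected for GC content, which was 57.8% for Cdt1 and 49.8% for Gmnn. Cdc6, the ATPase that loads the MCM ring with ORC, averaged 21.1 ± 2.07 TPM with the fusion and 21.9 ± 1.31 TPM with the empty vector (SD, n = 3 each) and had a 95% interval of −0.29 to 0.18 on the log2 scale.

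The MCM genes encode the motor of the replicative helicase. Of the 6, 3 fell (Mcm2, Mcm5 and Mcm3) and 0 rose, where 10.0% and 10.2% of all tested genes did. The summed level of the 6 was 404, 378 and 404 TPM in the TPR-FGFR1 libraries, against 449.6, 476 and 489 TPM in the empty vector libraries. Mcm2 (ENSMUSG00000002870) stood at 27.2, 23.9 and 36.6 TPM in the TPR-FGFR1 libraries, against 47.1, 45.2 and 45.1 TPM in the empty vector libraries. The groups did not overlap, and replicate 3 was the fusion library nearest to the empty vector (log2 fold change −0.65, SE 0.149, limma adjusted p = 0.0284). Mcm5 (ENSMUSG00000005410) showed the same order, at 59.6, 52.3 and 72.3 TPM in the TPR-FGFR1 libraries, against 82.9, 85.7 and 87.1 TPM in the empty vector libraries (log2 fold change −0.48, SE 0.1203, limma adjusted p = 0.0358). Mcm3 (ENSMUSG00000041859) stood at 83.5, 79.95 and 87.5 TPM in the TPR-FGFR1 libraries, against 96.6, 104 and 114 TPM in the empty vector libraries, a smaller difference with no overlap (log2 fold change −0.32, SE 0.0855, limma adjusted p = 0.0432). All 3 remained called after GC and length correction, with log2 fold changes of −0.57, −0.39 and −0.19.

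The remaining MCM genes differed less. Mcm6, the subunit of highest mean level in both groups, stood at 110, 107 and 99.5 TPM in the TPR-FGFR1 libraries, against 104, 109 and 113 TPM in the empty vector libraries. Mcm4 stood at 55.8, 55.5 and 47.8 TPM in the TPR-FGFR1 libraries, against 54.5, 57.1 and 58.7 TPM in the empty vector libraries. Mcm7 stood at 67.9, 59.8 and 60.2 TPM in the TPR-FGFR1 libraries, against 64.9, 75.2 and 71.3 TPM in the empty vector libraries. In each of these the groups overlapped, with 95% intervals of the log2 difference of −0.22 to 0.14 for Mcm6, −0.30 to 0.11 for Mcm4 and −0.38 to 0.046 for Mcm7. Mcm4 and Mcm6 were called lower after the correction (log2 fold changes −0.21 and −0.13), whereas Mcm7 was at 0.0015. The share of Mcm2 in the summed MCM level was 6.73, 6.33 and 9.07% in the TPR-FGFR1 libraries and 10.5, 9.501 and 9.23% in the empty vector libraries. The share of Mcm6 was 27.2, 28.2 and 24.6% in the TPR-FGFR1 libraries and 23.03, 22.9 and 23.1% in the empty vector libraries. These shares of Mcm2 and Mcm6 did not overlap between groups. Shares within a complex were not corrected for GC content, and their differences were described and not tested.

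Among the genes that turn the loaded ring into an active helicase, Gins1 had the smallest adjusted p of the 46 members. Gins1 (ENSMUSG00000027454), which encodes the PSF1 subunit of GINS, stood at 10.5, 10.3 and 9.8 TPM in the TPR-FGFR1 libraries, against 16.96, 15.9 and 17.8 TPM in the empty vector libraries. The 3 fusion libraries lay close together and below every empty vector library, with a mean 39.7% lower (log2 fold change −0.68, SE 0.08303, limma adjusted p = 0.00746). It was called in all 21 alternative settings, with a log2 fold change of −0.79 after GC and length correction and −0.65 without replicate 3. Its share of the summed GINS level was 9.65, 9.68 and 10.01% in the TPR-FGFR1 libraries and 17.3, 14.4 and 15.8% in the empty vector libraries.

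No other GINS gene passed the test. Gins4 stood at 38.5, 39.7 and 32.01 TPM in the TPR-FGFR1 libraries, against 28.2, 32.6 and 33.4 TPM in the empty vector libraries. TPR-FGFR1 replicates 1 and 2 lay above all empty vector libraries and replicate 3 among them (log2 fold change 0.22, SE 0.112, limma adjusted p = 0.1901; without replicate 3, 0.31, adjusted p = 0.0266, and 0.35, adjusted p = 0.0264, when corrected as well). After the correction with all libraries Gins4 was not called (0.24, limma adjusted p = 0.156). Gins2, the GINS gene of highest mean level in both groups, stood at 39.8, 36.8 and 41.2 TPM in the TPR-FGFR1 libraries, against 35.1, 43.9 and 43.2 TPM in the empty vector libraries, with overlapping groups, and Gins3 averaged 18.1 ± 2.87 TPM with the fusion and 18.1 ± 0.466 TPM with the empty vector (SD, n = 3 each). Cdc45 (the gene of the GINS partner CDC45) stood at 29.5, 29.9 and 28.3 TPM in the TPR-FGFR1 libraries, against 32.2, 33.7 and 36.4 TPM in the empty vector libraries. Its groups did not overlap (log2 fold change −0.22, SE 0.0782, limma adjusted p = 0.0912), and it was called lower after the correction (log2 fold change −0.24, adjusted p = 0.0132). Mcm10, whose product helps to activate the helicase, averaged 33.2 ± 1.63 TPM with the fusion and 36.8 ± 2.54 TPM with the empty vector (SD, n = 3 each) and was not called under these treatments.

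None of the 9 polymerase and primase genes passed the test with all libraries, where 10.0% of all tested genes were called lower and 10.2% higher. Pold1 and Pold2, the catalytic and second subunits of polymerase delta, had the widest spread between fusion libraries on the log2 scale. Pold1 stood at 6.53, 4.7 and 14.2 TPM in the TPR-FGFR1 libraries, against 17.5, 15.9 and 13.1 TPM in the empty vector libraries. Replicates 1 and 2 were below all empty vector libraries, but replicate 3 was above empty vector replicate 3 (log2 fold change −0.92, SE 0.338, limma adjusted p = 0.0933; without replicate 3, −1.32, adjusted p = 0.00228, and −0.63, adjusted p = 0.0121, when corrected as well). After the correction with all libraries Pold1 was not called (−0.40, limma adjusted p = 0.176). Pold2 stood at 18.2, 14.2 and 27.1 TPM in the TPR-FGFR1 libraries, against 37.2, 32.04 and 29.99 TPM in the empty vector libraries. The Pold2 groups did not overlap (log2 fold change −0.75, SE 0.218, limma adjusted p = 0.0521), and it was called lower after the correction and without replicate 3 (log2 fold changes −0.35 and −0.99, adjusted p = 0.0343 and 0.00284). Pold1 had the highest GC content of the 46 members, 61.01%, and Pold2 the second highest, 58.7%. Pold3 stood at 39.4, 39.6 and 36.5 TPM in the TPR-FGFR1 libraries, against 38.5, 41.7 and 43.6 TPM in the empty vector libraries, an overlap, with a corrected log2 fold change of −0.14 (adjusted p = 0.0462).

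For polymerase alpha and primase, the subunits split in direction without passing the test. Prim1, the catalytic primase subunit, stood at 75.4, 79.4 and 62.3 TPM in the TPR-FGFR1 libraries, against 60.4, 62.4 and 63.5 TPM in the empty vector libraries. TPR-FGFR1 replicates 1 and 2 were the highest and replicate 3 lay among the empty vector libraries (log2 fold change 0.21, SE 0.103, limma adjusted p = 0.172; without replicate 3, 0.31, adjusted p = 0.00465, and 0.11, adjusted p = 0.0898, when corrected as well). Prim2 stood at 32.2, 29.9 and 29.9 TPM in the TPR-FGFR1 libraries, against 32.9, 32.9 and 33.4 TPM in the empty vector libraries. Pola1 stood at 41.5, 40.7 and 34.7 TPM in the TPR-FGFR1 libraries, against 41.7, 44.1 and 44.04 TPM in the empty vector libraries. The groups of Prim2, the large primase subunit, and Pola1, the catalytic polymerase subunit, did not overlap, with log2 fold changes of −0.11 and −0.15 (limma adjusted p = 0.305 and 0.255), and both were called lower after the correction (−0.25 and −0.33). Pola2 averaged 42.2 ± 1.63 TPM with the fusion and 44.1 ± 2.81 TPM with the empty vector (SD, n = 3 each). For polymerase epsilon, Pole averaged 46.5 ± 3.4 TPM with the fusion and 43.8 ± 1.55 TPM with the empty vector (SD, n = 3 each). Pole2 stood at 18.3, 16.7 and 12.8 TPM in the TPR-FGFR1 libraries, against 17.7, 20.1 and 20.2 TPM in the empty vector libraries, where replicate 3 was the lowest library (log2 fold change −0.27, SE 0.137, limma adjusted p = 0.181; corrected log2 fold change −0.41, adjusted p = 0.01599).

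Pcna, the sliding clamp and the most abundant member in the empty vector libraries, fell by a small amount. Pcna (ENSMUSG00000027342) stood at 301, 299 and 273 TPM in the TPR-FGFR1 libraries, against 338, 350.3 and 364 TPM in the empty vector libraries. The groups did not overlap, the mean was 17.1% lower with the fusion, and the call was close to the threshold (log2 fold change −0.27, SE 0.0767, limma adjusted p = 0.0495). It was called in 9 of 21 alternative settings, and GC and length correction gave it a log2 fold change of −0.40 (adjusted p = 0.00194). Of the clamp loader genes, Rfc3 rose. Rfc3 (ENSMUSG00000033970) stood at 60.4, 57.5 and 55.3 TPM in the TPR-FGFR1 libraries, against 42.3, 48.1 and 46.9 TPM in the empty vector libraries, with no overlap (log2 fold change 0.33, SE 0.0815, limma adjusted p = 0.03502), and was not called after the correction (log2 fold change 0.19, adjusted p = 0.0594).

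The other clamp loader genes did not pass the test. Rfc4 stood at 79.7, 80.8 and 64.6 TPM in the TPR-FGFR1 libraries, against 56.6, 60.5 and 65.7 TPM in the empty vector libraries. Rfc2 stood at 67.8, 62.96 and 87.4 TPM in the TPR-FGFR1 libraries, against 78.3, 82.99 and 73.3 TPM in the empty vector libraries. Rfc1 stood at 57.05, 55.9 and 49.6 TPM in the TPR-FGFR1 libraries, against 52.6, 56.4 and 56.5 TPM in the empty vector libraries. Rfc4 was highest in TPR-FGFR1 replicates 1 and 2, and Rfc2 was lowest in the same libraries and highest in replicate 3. Without replicate 3, Rfc4 and Rfc2 were called in opposite directions (log2 fold changes 0.39 and −0.25, adjusted p = 0.00687 and 0.0276). When corrected as well, Rfc2 remained called (−0.25, adjusted p = 0.0395) and Rfc4 did not (0.16, adjusted p = 0.117). Neither was called after the correction with all libraries (−0.11 for Rfc2 and 0.13 for Rfc4, limma adjusted p = 0.55 and 0.174). Rfc1, the large subunit, was called lower after the correction (−0.14, adjusted p = 0.0267), and Rfc5 averaged 30.9 ± 3.62 TPM with the fusion and 29.1 ± 2.83 TPM with the empty vector (SD, n = 3 each).

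Of the 3 subunits of RPA, which coats single-stranded DNA at forks, Rpa2 fell, Rpa3 rose and Rpa1 was not called. Rpa2 (ENSMUSG00000028884) stood at 35.3, 30.99 and 44.02 TPM in the TPR-FGFR1 libraries, against 61.4, 57.4 and 57.1 TPM in the empty vector libraries. All fusion libraries lay below all empty vector libraries, with replicate 3 the nearest to them (log2 fold change −0.67, SE 0.129, limma adjusted p = 0.0182). Rpa3 (ENSMUSG00000012483), the smallest subunit, stood at 142, 147 and 121 TPM in the TPR-FGFR1 libraries, against 101, 112 and 105 TPM in the empty vector libraries, with no overlap (log2 fold change 0.36, SE 0.0961, limma adjusted p = 0.0432). Rpa1 stood at 87.6, 81.2 and 95.6 TPM in the TPR-FGFR1 libraries, against 86.9, 91.2 and 91.6 TPM in the empty vector libraries, overlapping groups with a 95% interval of −0.23 to 0.16. The Rpa2 to Rpa3 ratio in TPM, not corrected for GC content, was 0.249, 0.211 and 0.365 in the TPR-FGFR1 libraries, against 0.607, 0.513 and 0.542 in the empty vector libraries. After GC and length correction, both calls held, at log2 fold changes of −0.61 for Rpa2 and 0.15 for Rpa3. The longest Rpa3 transcript had the lowest GC content of the members, 34.2%, and the Rpa2 transcript had 51.5%.

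For Okazaki fragment processing, neither gene passed the test. Fen1, the flap nuclease, stood at 22.2, 22.5 and 28.9 TPM in the TPR-FGFR1 libraries, against 24.8, 25.5 and 26.1 TPM in the empty vector libraries, with replicate 3 the highest and replicates 1 and 2 the lowest libraries. Its log2 fold change was −0.059 with all libraries, −0.18 (adjusted p = 0.0354) without replicate 3, and 0.085 (adjusted p = 0.236) without replicate 3 after the correction. Lig1, the ligase that seals the fragments, stood at 43.2, 44.7 and 44.9 TPM in the TPR-FGFR1 libraries, against 48.6, 47.9 and 48.5 TPM in the empty vector libraries. Its groups did not overlap, but the difference of −0.12 on the log2 scale was not called (limma adjusted p = 0.203). After the correction Lig1 was at 0.054 with all libraries and 0.12 without replicate 3, and not called (limma adjusted p = 0.589 and 0.167).

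Timeless, which with Tipin stabilises forks and couples the helicase to the polymerases, had the largest fall among the called members. Timeless (ENSMUSG00000039994) stood at 8.31, 8.62 and 10.8 TPM in the TPR-FGFR1 libraries, against 16.7, 17.2 and 17 TPM in the empty vector libraries. The groups did not overlap, and the mean was 45.5% lower with the fusion (log2 fold change −0.82, SE 0.109, limma adjusted p = 0.00847). It was called in 20 of 21 alternative settings and had log2 fold changes of −0.61 after the correction and −0.92 without replicate 3. Its partner Tipin stood at 326, 352 and 273 TPM in the TPR-FGFR1 libraries, against 249, 270.3 and 265 TPM in the empty vector libraries, higher in each fusion library than in any empty vector library without passing the test (log2 fold change 0.27, SE 0.107, limma adjusted p = 0.112). Tipin was called higher without replicate 3 (0.37, adjusted p = 0.00452), but not after the correction with all libraries (0.095, adjusted p = 0.192) or without replicate 3 (0.11, adjusted p = 0.138). The share of Timeless in the summed level of the pair was 2.48, 2.39 and 3.797% in the TPR-FGFR1 libraries and 6.28, 5.98 and 6.02% in the empty vector libraries.

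**Figure D2:**
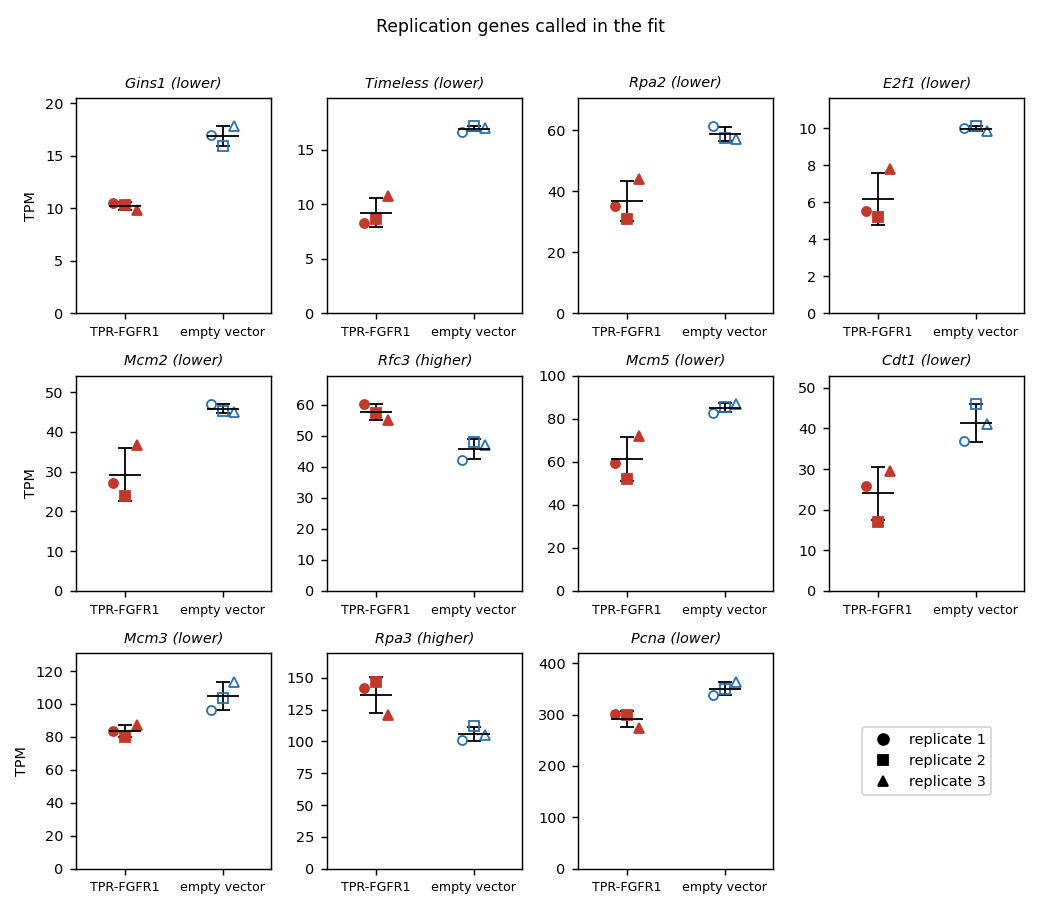
TPM (axes from 0) of the 11 called replication genes, with TPR-FGFR1 left and empty vector right, points for libraries, bars for the mean and whiskers for the SD (n = 3 each). No panel shows an overlap between groups, and for Timeless, Mcm2, Mcm3, Mcm5, Rpa2, Cdt1 and E2f1 replicate 3 (triangle) is the highest fusion library.

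Chromatin assembly factor 1, which places histones on new DNA, was not called. Chaf1a stood at 54.3, 41.3 and 45.01 TPM in the TPR-FGFR1 libraries, against 65.2, 54.8 and 53.3 TPM in the empty vector libraries, overlapping groups whose means differed by −18.8% without passing the test (log2 fold change −0.30, SE 0.127, limma adjusted p = 0.129). Chaf1b averaged 40.5 ± 3.45 TPM with the fusion and 40.1 ± 3.23 TPM with the empty vector (SD, n = 3 each).

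E2f1, the transcription factor gene and the member of lowest level, fell. E2f1 (ENSMUSG00000027490) stood at 5.54, 5.2 and 7.79 TPM in the TPR-FGFR1 libraries, against 9.98, 10.1 and 9.82 TPM in the empty vector libraries. The empty vector libraries lay close together and every fusion library was below them (log2 fold change −0.63, SE 0.144, limma adjusted p = 0.0283). The log2 fold change was −0.78 without replicate 3 and −0.23 (adjusted p = 0.0247) after GC and length correction, so the size of the fall depended on the treatment. Of 12 other genes of the E2F and RB family, 1 fell and 2 rose, where 10.0% and 10.2% of all tested genes did. After the correction 5 fell and 2 rose, beside 15.4% and 16.4% of tested genes. E2f2, another activating E2F, fell, averaging 12.97 ± 1.6 TPM with the fusion and 24.2 ± 1.05 TPM with the empty vector (SD, n = 3 each) (log2 fold change −0.86, SE 0.105, limma adjusted p = 0.00746), and was called in all 21 settings. Rb1, which holds E2F in check, rose, averaging 102 ± 15.3 TPM with the fusion and 65.03 ± 1.996 TPM with the empty vector (SD, n = 3 each) (log2 fold change 0.63, SE 0.118, limma adjusted p = 0.0172), and so did its relative Rbl2 (log2 fold change 0.41, SE 0.0841, limma adjusted p = 0.0214). Rb1 and Rbl2 were each called in 15 of the 21 settings, and not with the replicate block (limma adjusted p = 0.0502 and 0.0756). The ratio of E2f1 to Rb1 in TPM was 0.0506, 0.0463 and 0.0922 in the TPR-FGFR1 libraries, against 0.158, 0.156 and 0.146 in the empty vector libraries. This ratio was not corrected for GC content, which was 58.3% for E2f1 and 41.2% for Rb1. After the correction the log2 fold change of Rb1 was 0.45 (limma adjusted p = 0.00165).

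**Figure D3:**
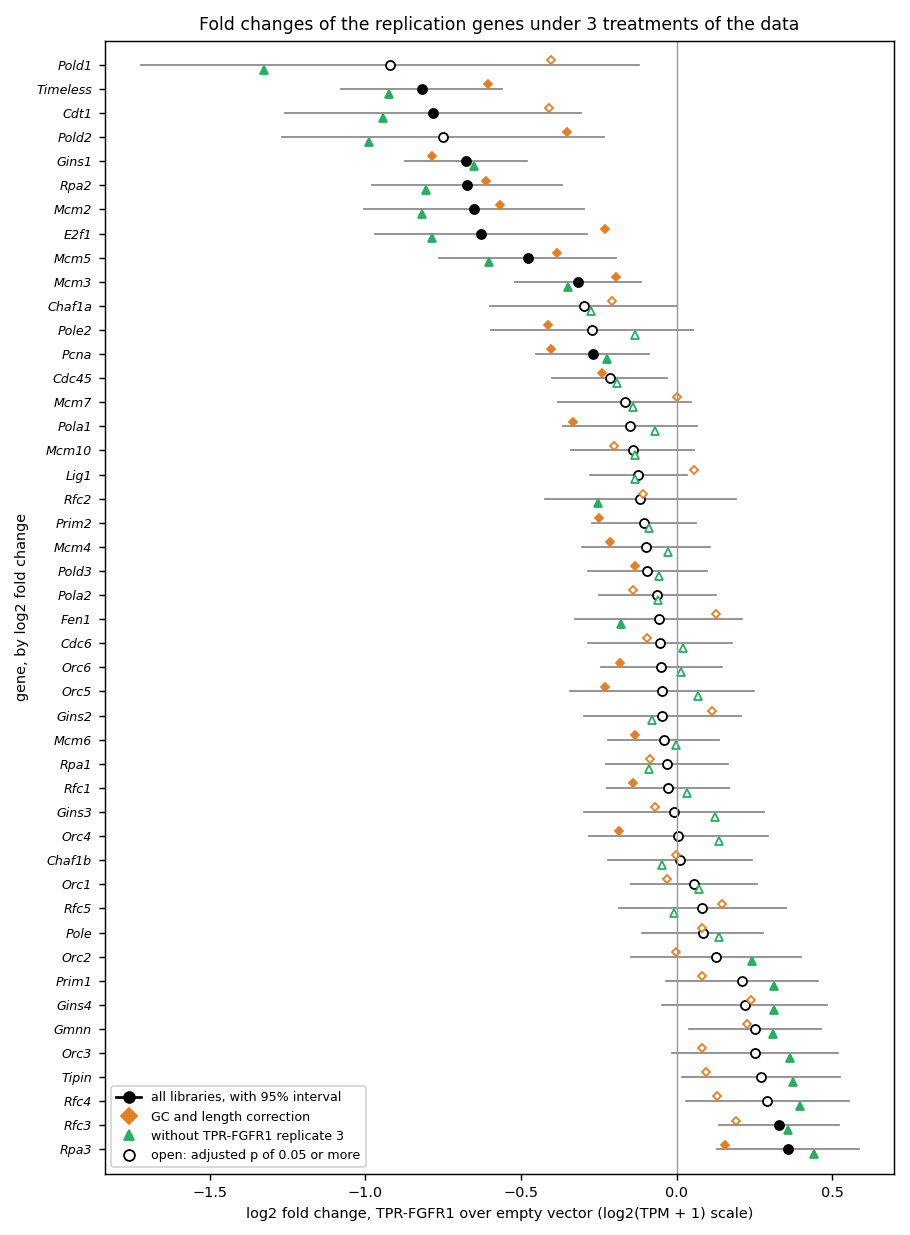
Log2 fold changes (TPR-FGFR1 over empty vector, log2(TPM + 1) scale) of the 46 genes with all libraries (circles, with 95% intervals), after GC and length correction (diamonds) and without TPR-FGFR1 replicate 3 (triangles). Filled symbols have a limma adjusted p under 0.05, and 9, 20 and 13 genes are filled on the lower side under the 3 treatments.

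The treatment of GC content changed how many members were called. After correction, 20 members fell (43.5%) and 1 rose (2.17%), against 15.4% and 16.4% of all tested genes. The median over members was −0.14, beside 0.0082 over all tested genes. Of the 9 members that fell without the correction, 8 also fell with it, all but Cdt1. The 12 added were Mcm4, Mcm6, Orc4, Orc5, Orc6, Cdc45, Pola1, Prim2, Pold2, Pold3, Pole2 and Rfc1, with corrected log2 fold changes from −0.41 to −0.13. With the correction and without TPR-FGFR1 replicate 3, 22 fell (47.8%) and 4 rose (8.70%), against 19.1% and 20.0% of all tested genes. Mcm2, Mcm3, Mcm5, Gins1, Pcna, Rpa2, Timeless and E2f1 fell, and Rpa3 rose, with all libraries, with the correction, without replicate 3 and with both. In 13 members no call was made with all libraries, with the correction or without replicate 3: Mcm7, Orc1, Cdc6, Gins2, Gins3, Mcm10, Pola2, Pole, Rfc5, Lig1, Rpa1, Chaf1a and Chaf1b. Of these 13, Rpa1 was called lower (−0.18, adjusted p = 0.0136) and Pole higher (0.13, adjusted p = 0.0449) with the correction and without replicate 3 together.

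Across the 46 members, the log2 fold change correlated with GC content at Pearson r = −0.67 (Spearman rho = −0.59), a description over genes that share the same 6 libraries. By fusion library the correlation was −0.71 (replicate 1), −0.75 (replicate 2) and −0.19 (replicate 3), and it was −0.24 for the corrected fold changes. The 9 genes that fell had a median GC content of 51.9% (45.3% to 58.3%), the 2 that rose had 34.2% and 43.2%, and the 35 not called had a median of 48.6%. The part of GC content in the uncorrected differences was not tested beyond this correction.

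**Figure D4:**
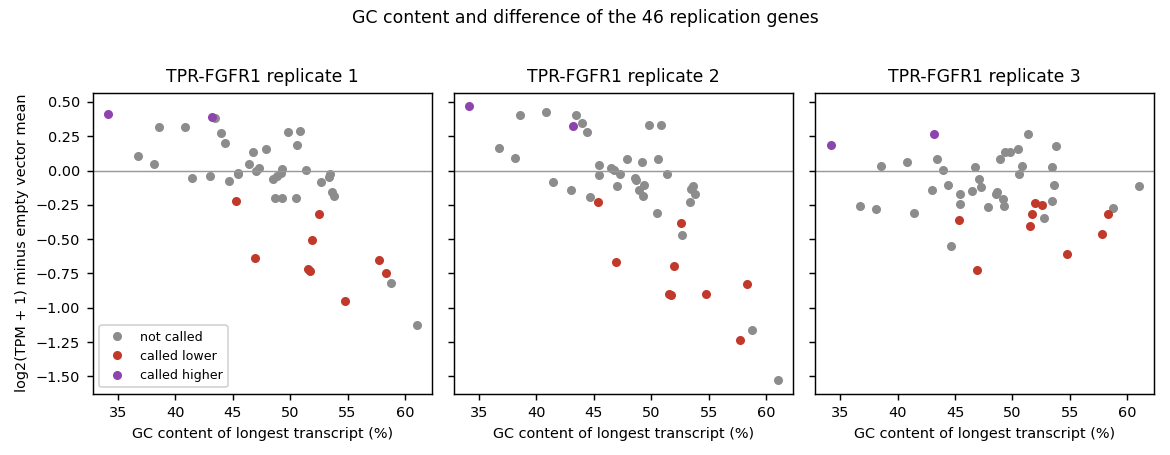
GC content of the longest transcript (x axis, %) against the log2(TPM + 1) difference from the empty vector mean (y axis) for the 46 genes in each TPR-FGFR1 library. The points slope downward in replicates 1 and 2 (r = −0.71 and −0.75) and less in replicate 3 (r = −0.19).

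Groups did not overlap, with the fusion lower, for 14 members (30.4%) and, with the fusion higher, for 4 (8.70%), against 20.8% and 22.6% of tested genes. Besides the called genes these were Cdc45, Pola1, Prim2, Pold2 and Lig1 on the lower side and Gmnn and Tipin on the higher. The medians over members of the difference from the empty vector mean were −0.032, −0.10 and −0.15 in TPR-FGFR1 replicates 1, 2 and 3, beside 0.068, 0.029 and −0.016 over all tested genes. Summed over the 46 members, the level was 2811, 2783 and 2617 TPM in the TPR-FGFR1 libraries, against 2734, 2874 and 2894 TPM in the empty vector libraries, which overlap.

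**Figure D5:**
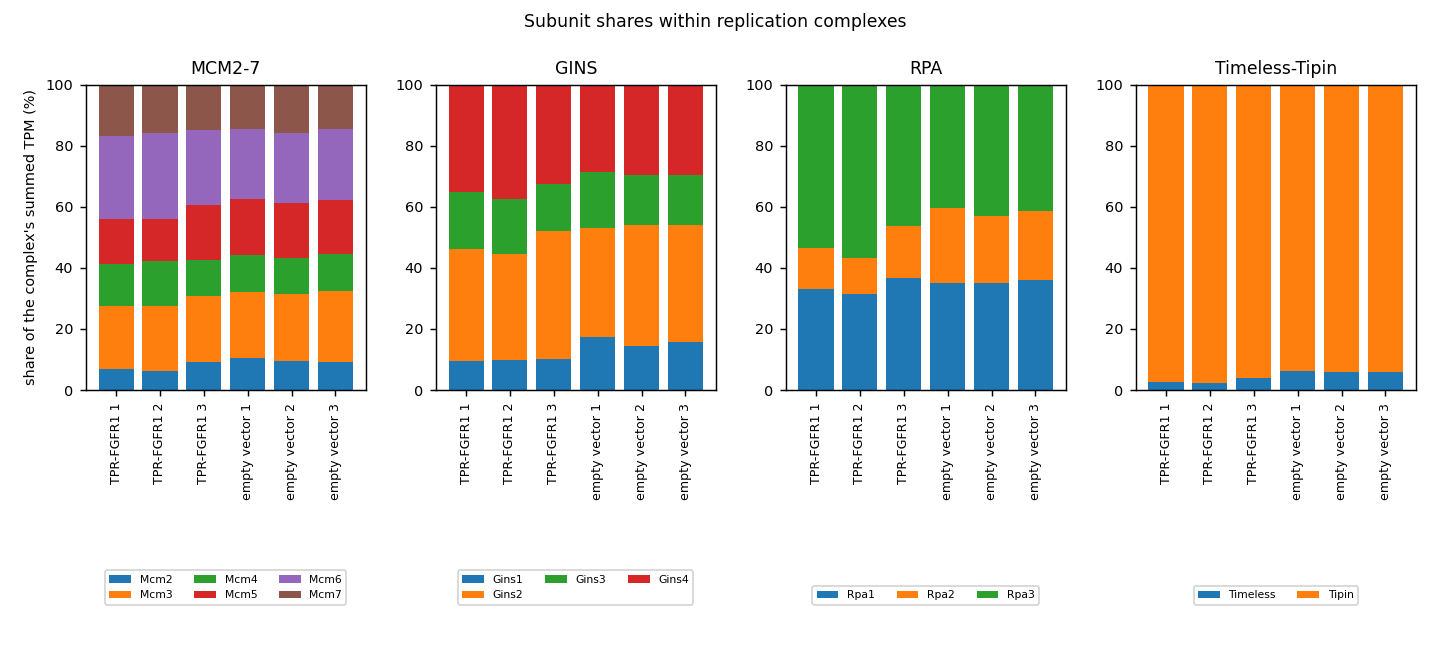
Share of each subunit in the summed TPM of its complex (y axis, %), by library, with the TPR-FGFR1 libraries left of the empty vector libraries. Gins1, Rpa2, Mcm2 and Timeless take smaller shares in all 3 TPR-FGFR1 libraries than in the empty vector libraries, and Gins4, Rpa3, Mcm6 and Tipin take larger shares. A smaller share of any subunit means larger shares elsewhere in its complex, so the Tipin share only mirrors that of Timeless. The mean Mcm6 level was 105 TPM with the fusion and 108 TPM with the empty vector.

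Of 53 other genes of replication and its control, 5 fell and 4 rose, near the 10.0% and 10.2% of all tested genes, with a median log2 fold change of −0.035. Among 13 firing factors and S-phase kinases, Recql4, a helicase of initiation, and Cdk2, the S-phase kinase, fell (−0.68 and −0.27 on the log2 scale, limma adjusted p = 0.0258 and 0.0359). Wdhd1, which links the helicase to polymerase alpha, rose (0.41, adjusted p = 0.03096). Among 19 other fork and polymerase genes, Uhrf1, which recognises hemimethylated DNA, and Asf1b, a histone chaperone gene, fell (−0.36 and −0.51, adjusted p = 0.0375 and 0.0425). The Uhrf1 call was lost after the correction (−0.19, adjusted p = 0.0646), and the Asf1b call with the correction and without replicate 3 together (−0.47, adjusted p = 0.0513). Pole3, a histone-fold subunit of polymerase epsilon, rose (0.39, adjusted p = 0.0295). Of 9 licensing regulators, 0 fell and 0 rose. After GC and length correction, 17 of the 53 fell and 5 rose, beside 15.4% and 16.4% of tested genes. Without TPR-FGFR1 replicate 3, 14 fell and 13 rose, beside 23.4% and 26.3%.

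The summed level of 14 markers of the G2 and M phases was 696, 713 and 608 TPM in the TPR-FGFR1 libraries, against 568, 593 and 586 TPM in the empty vector libraries, with no overlap. Of the 14, 3 rose (Mki67, Tpx2 and Nusap1) and 0 fell, where 10.2% and 10.0% of all tested genes did. Their log2 fold changes were 0.42, 0.35 and 0.41 (limma adjusted p = 0.0452, 0.0465 and 0.0394). Each of these 3 was called in 13 of 21 alternative settings, and not with the replicate block (limma adjusted p = 0.0965, 0.115 and 0.0947). After the correction 4 of the 14 rose and 1 (Kif11) fell, beside 16.4% and 15.4% of tested genes. Without TPR-FGFR1 replicate 3, 5 rose and 3 (Plk1, Aurka and Cdc20) fell, beside 26.3% and 23.4%. The part of cell cycle distribution in the differences of the replication genes was not tested, since cell cycle phase was not measured in these libraries.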

How the data were processed

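RNA was measured in 3 TPR-FGFR1 and 3 empty vector libraries. Per the labels' protocols, libraries came from a stranded Illumina mRNA kit and were sequenced as read pairs. The authors deposited TPM values for 57010 Ensembl IDs, made with fastp, HISAT2, StringTie and build GRCm39 per the submitters' processing notes. The sources used here give no versions, annotation or strand setting. Depth is unknown, since TPM holds no read numbers.

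Symbols, GC content and length of the longest transcript came from GENCODE M21 (52081 IDs matched by ID, no coordinates used). Genes averaging 1 TPM or more (12862) were tested on the log2(TPM + 1) scale. The fit was limma 3.58.1 in R 4.3.3 (eBayes with trend, group as the only term), with Benjamini-Hochberg adjustment over all tested genes and a threshold of 0.05 on the adjusted p. Fold changes use that log scale, which understates the change of low genes. The correction removed each library's spline trend (4 degrees of freedom) over GC content and length, and left out 321 tested genes without a value. The pipeline was tested on simulated data. Promoter sequences came from RefSeq (GRCm38.p6).

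All 46 members may be named. Values by library are given for those called with all libraries, after the correction or without TPR-FGFR1 replicate 3, and for an abundant member of each complex; other pathway genes are named where called. The members, gene lists, tests and alternatives were chosen with earlier results of these data known. The 21 alternatives were pseudocounts of 0.1 and 5, no filter, a 5 TPM filter, 3 scalings, eBayes without trend or robust, library weights, the correction, the replicate block with and without it, protein-coding genes alone, leaving out each library, and the correction without TPR-FGFR1 replicate 3.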

Additional observations from a re-analysis of the deposited data

How the results depend on the processing

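The counts moved with the settings. With all libraries 9 members fell and 2 rose, and 1291 and 1309 tested genes did. With 1 library left out at a time there were 1 to 13 falls and 0 to 9 rises among members, and 109 to 3009 falls and 111 to 3387 rises among tested genes. Without the filter, 2 members fell and 0 rose (526 and 620 tested genes). With library weights (arrayWeights), 16 fell and 12 rose (4143 and 5138). After GC and length correction, 20 fell and 1 rose (1934 and 2052 tested genes), with a median over members of −0.14. With that correction and without TPR-FGFR1 replicate 3, 22 fell and 4 rose (2391 and 2511), with a median of −0.16. Without a trend in eBayes 7 members fell and 0 rose (1162 and 1159 tested genes).

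The replicate number was also fitted as a block. With the replicate block 3 members fell and 0 rose (421 and 343 tested genes). With the block and the correction 9 fell and 0 rose (1143 and 1230 tested genes), with a median over members of −0.14. Same-numbered libraries did not deviate together (r = −0.19, −0.075 and −0.15), while differently numbered libraries had r from −0.017 to 0.16. These values show no shared deviation by replicate number. They cannot show whether the samples were prepared in pairs, which the sources used here do not state. Under pseudocounts of 0.1 and 5, a 5 TPM filter, quantile and median-ratio scaling, removal of mitochondrial genes, robust settings and protein-coding genes alone, 8 to 10 members fell and 2 or 3 rose. Among tested genes these settings gave 1209 to 1525 falls and 1275 to 1748 rises.

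Among single members, 3 values changed sign with a call: Orc4 was −0.19 after the correction and −0.16 after it without TPR-FGFR1 replicate 3, against 0.0049 with all libraries, and Gins3 was 0.15 with library weights, against −0.0074. The causes of these changes were not tested. Depth is unknown, and 3 libraries a group limit the precision.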

Other observations

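Besides the E2F forms, the promoter windows of the 37 members were searched for CCAAT and TTTGAA on both strands, the letters of the NF-Y site and of an element known from genes expressed late in the cell cycle. CCAAT was found in 24 of the members' 45 windows (53.3%), against 37.4% of all 32851 windows, and TTTGAA in 5 of the 45 (11.1%), against 17.9% of all windows. Of all 37 members with a window, 8 fell, 2 rose and 27 were not called, beside 10.0% and 10.2% of tested genes called lower and higher. Of the 22 members with CCAAT, 5 fell, 2 rose and 15 were not called. Of the 5 with TTTGAA, Mcm2 fell and Cdc45, Fen1, Gins3 and Pold2 were not called.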
